A study of Mus musculus with 22 samples.

Results

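The genes described here encode subunits of the mitochondrial respiratory chain and ATP synthase in mouse liver. They were chosen by gene name, as symbols that start with mt-Nd, mt-Co, mt-Atp, mt-Cytb, Nduf with a subunit letter, Sdha to Sdhd, Uqcr, the Cox subunit families or Atp5. The rule found 109 of the 16469 genes in the table, of which 13 lie on mitochondrial DNA (mtDNA) and 96 in the nucleus. Of the nuclear members, 82 are annotated genes and 14 are pseudogenes by name or biotype. Levels are given as CPM, reads scaled to library size. A level of at least 1 CPM in at least 3 livers was reached by 102 members, which were tested. The other 7 (Ndufa11b, Ndufa4l2, Uqcrh-ps2, Cox6a2, Cox8b, Atp5k-ps3 and Atp5pb-ps) were not, and 91 members reached 1 CPM in all 22 livers.

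Livers of C57BL6J mice were perfused with PBS, and RNA was sequenced from the 3' ends of transcripts. Mice received lipid nanoparticles carrying Dsi-RNA, a double-stranded RNA that Dicer cuts into a small interfering RNA, and the table's column names give Hprt as its target. The group LNP2 (n = 3) received 2 mg/kg. The group BLT1_LNP0.2 (n = 4) received BLT-1, an inhibitor of lipid transfer by the scavenger receptor SR-BI, at 1 mg/kg and, 24 h later, particles at 0.2 mg/kg. The group LNP0.2 (n = 8) received 0.2 mg/kg, and livers were taken 24 h after the particles. The control group (n = 7) has no injection stated in its labels. No group received BLT-1 without particles, so the inhibitor was compared only on top of the particles. Sex and age are not given in the labels.

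The respiratory chain passes electrons from NADH and succinate to oxygen and pumps protons, and ATP synthase uses the proton gradient to make ATP. Complex I oxidises NADH, complex II oxidises succinate, complex III passes electrons to cytochrome c, complex IV reduces oxygen, and complex V is ATP synthase. Complexes I, III, IV and V are assembled from subunits of both genomes, while complex II is wholly nuclear. The mtDNA genes are transcribed as long precursors of either strand and cut mostly at the transfer RNAs that lie between many of them. Genes of 1 strand therefore share a precursor. Nuclear subunit genes each have their own promoter, many with sites for NRF1, GABPA, YY1 or ERRalpha. In hepatocytes the chain is fed largely by fatty acid and amino acid oxidation.

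Libraries held between 7152596 and 15101565 reads, and CPM were scaled by edgeR's TMM factors. Hprt, the targeted gene, averaged 15.3 ± 2.32 CPM in LNP2, 27.2 ± 2.07 in BLT1_LNP0.2, 27.8 ± 1.61 in LNP0.2 and 30.1 ± 4.87 CPM in control livers (SD). The 3 LNP2 livers differed from all others in sex-linked RNA. Xist had 2.82 to 4.88 CPM in LNP2 livers and at most 0.312 CPM in control livers, and the Y-linked Ddx3y averaged 7.55 CPM in LNP2 and 17.1 CPM in control livers, so the higher dose cannot be told apart from this difference. Control livers 28 and 29 stood apart from the other 5 controls, with 34.9 to 38.7 CPM of Hprt against 24.8 to 28.8 CPM, and with 11958 CPM or more of the acute-phase gene Saa1 against 3551 CPM or less. Hepatocyte markers (Alb, Apoa1, Ttr, Cps1 and Hnf4a) summed to 15649 to 19290.3 CPM in LNP2, 18577 to 20476 in BLT1_LNP0.2, 19240 to 21595 in LNP0.2 and 20340 to 25406 CPM in control livers, with 3 of 5 lower in LNP2 than in control livers and 1 of 5 (Alb) lower in LNP0.2 livers. Kupffer cell markers summed to 21.0 to 28.5 CPM in LNP2, 24.7 to 36.3 in BLT1_LNP0.2, 22.2 to 36.1 in LNP0.2 and 30.8 to 45.4 CPM in control livers, with Vsig4 and Marco lower in LNP2 and Vsig4 lower in LNP0.2 and BLT1_LNP0.2 livers. Of 3 neutrophil markers S100a9 was higher in LNP2 livers, where the list summed to 39.9 to 111 CPM, against 6.93 to 59.7 CPM in control livers. Of 5 sinusoidal endothelial markers, which summed to 37.3 to 43.0 CPM in LNP2, 35.8 to 41.3 in BLT1_LNP0.2, 38.8 to 73.9 in LNP0.2 and 40.6 to 54.0 CPM in control livers, Pecam1 was higher in LNP0.2 than in control livers (1.28, adjusted p = 0.00496), lower than in LNP0.2 livers in LNP2 (-1.85) and BLT1_LNP0.2 livers (-2.03), and Lyve1 was higher in LNP2 than in control livers (0.70). The endothelial list as a whole did not follow these 2 genes. Its median log2 change against control livers was -0.07 in LNP0.2 and -0.28 in LNP2 livers. Pecam1 alone had 11.2 to 42.8 CPM of the sum in LNP0.2 livers. Monocyte markers summed to 2.22 to 17.4 CPM in LNP0.2 and 0.952 to 3.46 CPM in control livers, with Ly6c2 higher (1.57, adjusted p = 0.00955). In LNP2 against control livers the lymphocyte gene Gzma was higher (0.97) and the erythroid gene Alas2 lower (-0.56). No stellate cell or cholangiocyte marker passed. The part of these markers in the results was not tested. In bulk liver, fewer cells of a type and less RNA per cell cannot be told apart.

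The 13 mtDNA genes took 13.3% ± 0.499 of gene reads in LNP2, 12.4% ± 0.474 in BLT1_LNP0.2, 11.8% ± 0.589 in LNP0.2 and 13.5% ± 0.727 in control livers (SD, n = 3, 4, 8 and 7). The nuclear members took 2.63% ± 0.0453 in LNP2, 2.64% ± 0.201 in BLT1_LNP0.2, 2.75% ± 0.114 in LNP0.2 and 2.74% ± 0.129 in control livers. On the CPM scale the mtDNA genes summed to 126412 ± 5162 in LNP2, 125389 ± 7690 in BLT1_LNP0.2, 113613 ± 6606 in LNP0.2 and 142157 ± 5796 CPM in control livers. The LNP0.2 livers lay between 103785 and 120688 CPM, all below the control livers at 135134 to 150818 CPM. The nuclear sum was 24940.3 ± 2071 CPM in LNP2, 26673 ± 500 in BLT1_LNP0.2, 26603 ± 852 in LNP0.2 and 28894 ± 1040.2 CPM in control livers.

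The ratio of the mtDNA sum to the nuclear sum does not depend on the scaling between libraries. Its log2 averaged 2.34 ± 0.07 in LNP2, 2.23 ± 0.09 in BLT1_LNP0.2, 2.09 ± 0.07 in LNP0.2 and 2.30 ± 0.05 in control livers. The LNP0.2 livers spanned 1.96 to 2.16 and did not overlap the control livers at 2.20 to 2.36, a difference of -0.21. The LNP2 livers spanned 2.26 to 2.39 and overlapped the control livers, with a difference of 0.05, and lay above every LNP0.2 liver, with a difference of 0.25. The BLT1_LNP0.2 livers spanned 2.10 to 2.29 and overlapped both LNP0.2 and control livers. No test was run on these ratios. The labels number each library, and these numbers are taken here as animal numbers. Within the ranges of animal numbers that hold both groups, LNP0.2 minus control was -0.22 for animals 1 to 7, -0.11 for animals 14 to 20 and -0.32 for animals 27 to 31.

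**Figure D1:**
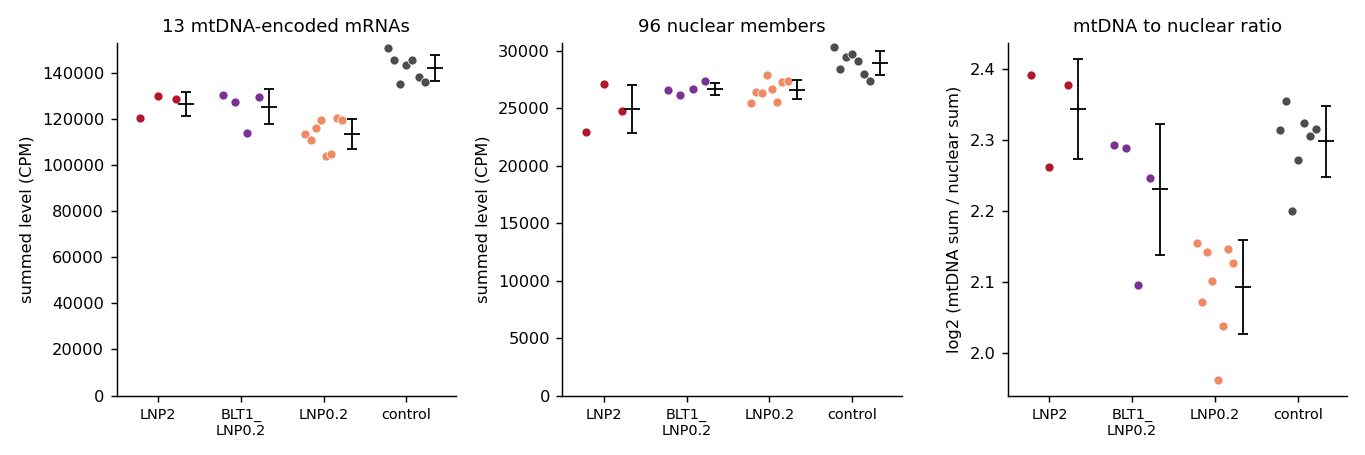
Summed level of the 13 mtDNA genes (left) and of the 96 nuclear members (middle), in CPM, and the log2 of their ratio (right, axis not from 0), by group. Each point is a liver, and the bar beside it is the mean with its SD. The 8 LNP0.2 livers lie below the 7 control livers for the mtDNA sum and for the ratio.

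The lower dose gave the clearest result for the mtDNA genes. In LNP0.2 against control livers, 10 of 13 mtDNA genes fell by limma at an adjusted p of 0.05 and none rose, with a median log2 change of -0.34, against 0.00 for all genes tested. Complex I genes, which encode the proton-pumping membrane arm, fell in 6 of 7 cases, and the complex III gene mt-Cytb, which encodes cytochrome b, fell. Of the complex IV genes, which encode the catalytic core of cytochrome c oxidase, mt-Co2 and mt-Co3 fell and mt-Co1 did not, and of the ATP synthase genes mt-Atp6 fell and mt-Atp8 did not pass. Across the genome 2.33% of the 10763 genes tested were lower, and 16.9% of those with a mean of at least 100 CPM. Above 100 CPM, 10 of 12 mtDNA members were lower (83.3%).

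The values per liver show no overlap for the leading genes. The mt-Cytb level had a low of 5761, a median of 6495 and a high of 6853 CPM in LNP0.2 livers, against 8218, 8798 and 9072 CPM in control livers. All LNP0.2 livers lay below all control livers, and mt-Cytb fell by 26.7% (log2 change -0.45, SE 0.04, limma adjusted p = 3.9e-07). The complex I gene mt-Nd1 had 5518, 6152 and 6772 CPM in LNP0.2 livers, against 7907, 8299 and 8698 CPM in control livers, and its log2 change was -0.43 (SE 0.05, limma adjusted p = 8.2e-06). The complex IV gene mt-Co3 had 11784, 12502 and 13754 CPM in LNP0.2 livers, against 15781, 16815 and 18000.1 CPM in control livers. Its log2 change was -0.41 (SE 0.05), again without overlap. The smallest called changes were those of mt-Nd5 at -0.20 (adjusted p = 0.0165) and mt-Co2 at -0.25 (adjusted p = 0.0004). The remaining called members were mt-Nd4 at -0.39, mt-Nd4l at -0.38, mt-Nd3 at -0.34, mt-Atp6 at -0.34 and mt-Nd2 at -0.33, and none of these overlapped between groups.

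The other mtDNA genes did not pass in LNP0.2 livers. The mt-Co1 level was 649.8 to 705 CPM in LNP0.2 livers and 612 to 686 CPM in control livers, a log2 difference of 0.08 (adjusted p = 0.197). The light-strand gene mt-Nd6 was thinly covered, with 43 to 144 reads a library, and its difference of -0.25 had an SE of 0.20. For mt-Atp8 the difference was -0.15 (adjusted p = 0.0607). The edgeR quasi-likelihood test called the same count of 10 mtDNA members. On the authors' spike-in scale no member passed by limma (6 at an unadjusted p under 0.05), and all genes had a median of -0.11. With plain CPM and no TMM factor 8 mtDNA genes were lower and mt-Co1 was higher, with a median of all genes of 0.10.

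**Figure D2:**
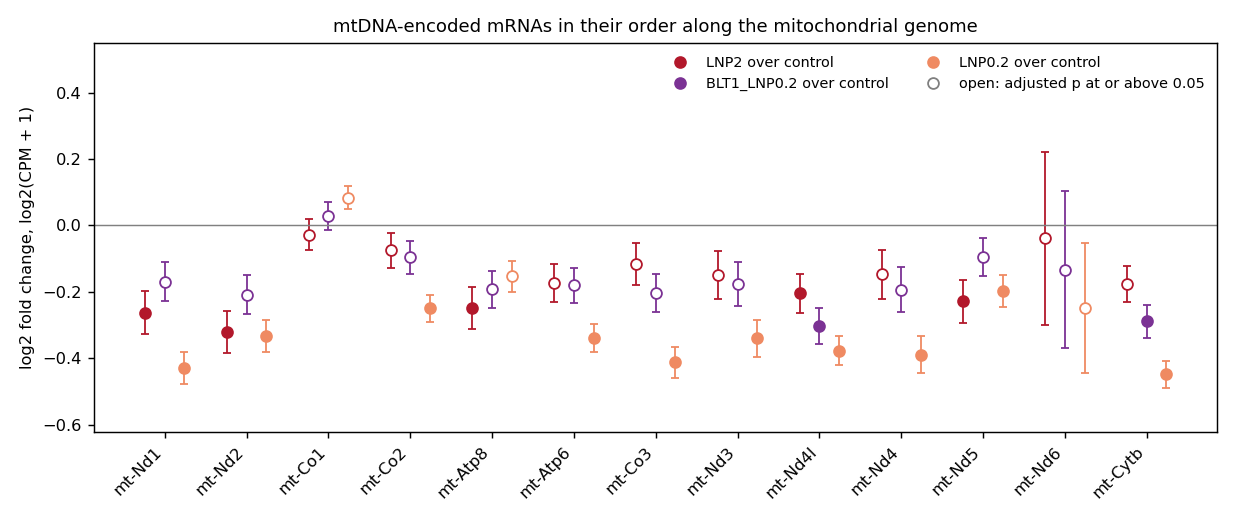
Log2 fold change over control of each mtDNA gene, in genome order, in LNP2, BLT1_LNP0.2 and LNP0.2 livers. Points are limma estimates, bars their standard errors, and filled points have an adjusted p under 0.05. The LNP0.2 point is the lowest of the 3 for every gene except mt-Nd5, mt-Co1 and mt-Atp8. All 3 comparisons share the control livers.

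Genes of the mtDNA lie end to end, and some overlap, so reads of neighbours can be shared. No transfer RNA lies between mt-Atp8 and mt-Atp6 or between mt-Nd4l and mt-Nd4. Levels of these genes therefore need not be those of separate mRNAs. The 43 bases common to mt-Atp8 and mt-Atp6 (chrMT:7927-7969, + strand, GRCm38) are shown because these neighbours gave different calls. Capitals mark the start codon of mt-Atp6 and the stop codon of mt-Atp8.
mt-Atp8 and mt-Atp6 overlap: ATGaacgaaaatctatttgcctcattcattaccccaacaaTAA
Reads of mt-Atp8 as a share of those of both genes were 41.0% ± 1.45 in LNP2, 42.0% ± 0.755 in BLT1_LNP0.2, 45.4% ± 1.17 in LNP0.2 and 42.2% ± 1.60 in control livers. The LNP0.2 livers, at 43.9% to 47.6%, lay above every LNP2 and BLT1_LNP0.2 liver and overlapped the control livers at 40.3% to 44.4%. Similarly, mt-Nd4l and mt-Nd4 share 7 bases, and mt-Nd5 and mt-Nd6 share 14 on opposite strands. Whether the authors' counting used strand is not given in the sources used here, so mt-Nd6 values are uncertain.

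Nuclear members shifted less at the lower dose. In LNP0.2 against control livers 10 of 89 tested nuclear members fell and none rose, with a median log2 change of -0.10. With plain CPM and no TMM factor that median was 0.02, no nuclear member was lower and Ndufa8 was higher, so the nuclear direction depends on the scaling. Above 100 CPM, 8 of 59 nuclear members were lower (13.6%), near the 16.9% of all genes at that level. Complex I held 6 of the 10, among them Ndufb5, Ndufb8, Ndufb9, Ndufb11 and Ndufc1, complex III held Uqcrh, and complex V held Atp5g1, Atp5g3 and Atp5mpl. None of 4 complex II genes and none of 14 complex IV genes passed by limma or by edgeR, with 0 and 8 of them at an unadjusted p under 0.05.

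Atp5g3, one of the genes for the rotating c-ring of ATP synthase, was the clearest nuclear member. It had 919, 963 and 1032 CPM (low, median and high) in LNP0.2 livers, against 1082, 1150.1 and 1216 CPM in control livers. The groups did not overlap, and the log2 change was -0.24 (SE 0.04, limma adjusted p = 0.00016). Uqcrh, the hinge protein of complex III, had 682 to 822 CPM in LNP0.2 livers and 828 to 897 CPM in control livers, a change of -0.18 (adjusted p = 0.0149). The edgeR test added Uqcr11 (-0.19), Ndufa7 (-0.17) and Uqcr10 (-0.13), with limma adjusted p-values of 0.0595, 0.0501 and 0.0565. Without controls 28 and 29, 23 members were lower in LNP0.2 livers, of which 15 were among the 20 called with all controls. Of all genes, 242 were lower then and 251 with all controls.

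The higher dose gave a different balance between the genomes. In LNP2 against control livers 35 members fell and none rose, 5 of them mtDNA genes and 30 nuclear, with medians of -0.17 for mtDNA and -0.19 for nuclear members and 0.01 for all genes. Of all genes tested 3.80% were lower, and 21.0% of those above 100 CPM. Above 100 CPM, 27 of 59 nuclear members (45.8%) and 5 of 12 mtDNA members (41.7%) were lower. The lower mtDNA genes were mt-Nd1, mt-Nd2, mt-Nd4l, mt-Nd5 and mt-Atp8.

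Complex I genes were lower in LNP2 livers in 12 of 36 cases (median -0.17). They included Ndufs3 and the flavin-carrying Ndufv1, both core subunits, and the accessory Ndufa1, which is X-linked. Ndufa1 had 383, 487 and 488 CPM in LNP2 livers, against 567, 585 and 638 CPM (low, median and high) in control livers. The groups did not overlap, with a log2 change of -0.40 (SE 0.08, adjusted p = 0.00184). Also lower were Ndufa5, Ndufb3, Ndufb5, Ndufb6, Ndufb9, Ndufb11, Ndufc1 and Ndufc2, with changes of -0.20 to -0.29. Ndufa6, an accessory subunit, averaged 535 ± 45.3 CPM in LNP2 and 599.5 ± 69.8 CPM in control livers and did not pass (-0.16, adjusted p = 0.324).

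Complex II, which is also an enzyme of the citric acid cycle, was lower for 2 of 4 genes. Sdhb, its iron-sulphur subunit, had 123, 151 and 116 CPM in LNP2 livers, against 151, 163 and 173 CPM (low, median and high) in control livers. The highest LNP2 liver reached the lowest control, and the log2 change was -0.33 (SE 0.06, adjusted p = 0.00166). Sdha, the flavoprotein, changed by -0.25 (adjusted p = 0.0285). Of the 8 complex III genes 4 were lower, and they were Uqcrfs1 (the Rieske iron-sulphur protein, -0.36), Uqcrb (-0.29), Uqcrc2 (-0.27) and Uqcr10 (-0.24).

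Complex IV genes were lower in 6 of 14 cases (median -0.24), and the pseudogene Cox7c-ps1 was lower too. Cox5a had 372, 460.0 and 410.2 CPM in LNP2 livers, against 508, 568 and 627 CPM (low, median and high) in control livers. All LNP2 livers were below all controls, a log2 change of -0.44 (SE 0.06, adjusted p = 0.00017). The others were Cox7b (-0.35), Cox6c (-0.32), Cox7c (-0.30), Ndufa4 (-0.27) and Cox7a2 (-0.22). Cox4i1, at -0.16, did not pass (adjusted p = 0.0896). The edgeR test also called Cox6a1 and mt-Cytb, at -0.17 and -0.18.

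In complex V, 5 of 17 genes were lower. Atp5a1, the catalytic-head subunit alpha, had 209, 266 and 252 CPM in LNP2 livers, against 317, 325 and 352 CPM (low, median and high) in control livers, a log2 change of -0.44 (SE 0.06, adjusted p = 0.00017). Atp5g3 had 818, 936 and 907 CPM in LNP2 livers, and its change was -0.37 (SE 0.05, adjusted p = 3.3e-05). Atp5c1, the central-stalk subunit gamma, changed by -0.28, Atp5k by -0.25 and Atp5mpl by -0.19. No LNP2 liver overlapped a control liver for Atp5a1, Atp5g3, Atp5c1 and Atp5mpl.

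Counts at the higher dose rest on 3 livers. Without LNP2 liver 3 they came to 8 members, without liver 36 to 13 and without liver 16 to 48, and without controls 28 and 29 to 47, of which the pseudogene Uqcrh-ps1 was higher. The count of all genes called moved likewise, from 856 with all livers to 378, 432, 1068 and 1266 in the same order. Fitted on the LNP2 and control livers alone 7 members and 317 of all genes passed. On the spike-in scale no member passed by limma (5 at an unadjusted p under 0.05), and 53 of all genes did. On plain CPM no mtDNA gene passed, 4 nuclear members were lower (Cox5a, Ndufa1, Atp5g3 and Atp5a1) and Ndufa11 was higher. On plain CPM the median of all genes was 0.12, of mtDNA members -0.02 and of nuclear members -0.03. For the 30 nuclear members called, the median change was -0.43 within animals 1 to 7 and -0.20 within animals 14 to 20. Each of these ranges held 1 LNP2 and 2 control livers. The 30 were called on these same livers, which favours a lower median in each range. Both dose comparisons with control livers share those controls. Side by side, mt-Nd1, mt-Nd2, mt-Nd4l, mt-Nd5, Atp5g3, Atp5mpl, Ndufb5, Ndufb9, Ndufb11 and Ndufc1 were among those lower at both doses.

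**Figure D3:**
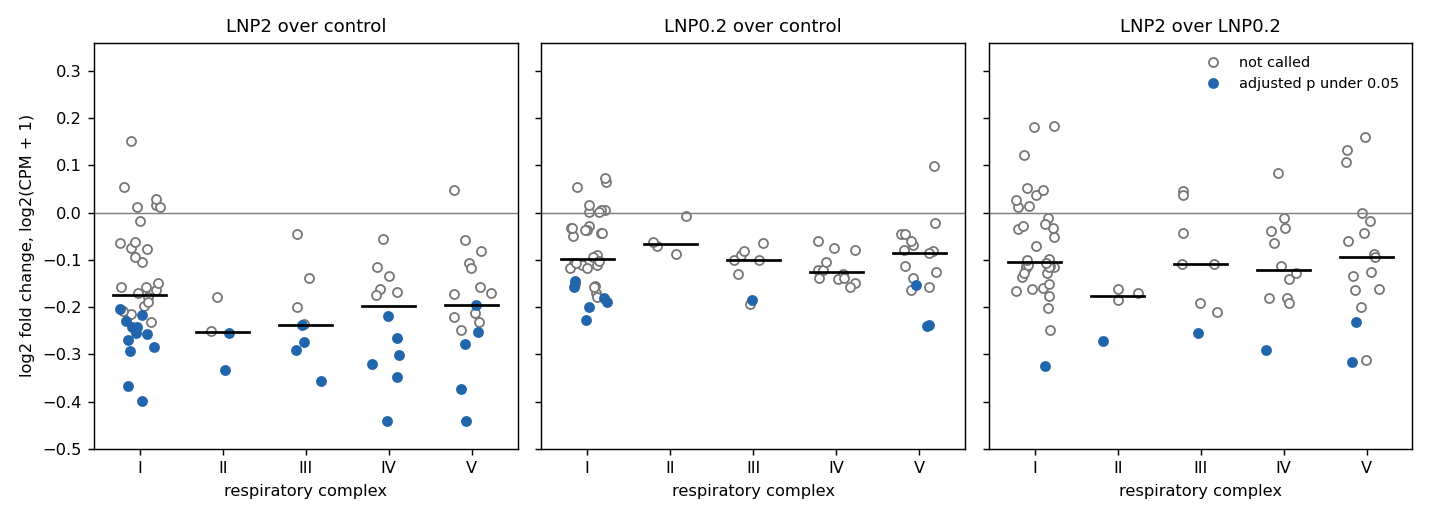
Log2 fold change of the 77 nuclear genes with a mean of at least 10 CPM, by complex, for LNP2 over control (left), LNP0.2 over control (middle) and LNP2 over LNP0.2 (right). Each point is a gene, filled where the limma adjusted p is under 0.05, and the black lines are medians. Medians lie below 0 in all 3 panels.

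The doses were then set against each other directly. In LNP2 against LNP0.2 livers mt-Co3 and mt-Cytb were higher, and 6 nuclear members were lower, with medians of 0.17 for mtDNA and -0.11 for nuclear members. Across all genes 6.01% were called in either direction, near the 6.74% of nuclear members. Above 100 CPM, 2 of 12 mtDNA members were higher (16.7%), against 17.5% of all genes at that level, and 6 of 59 nuclear members were lower (10.2%), against 13.5%, so these calls were no more frequent than among all genes. For mt-Cytb the LNP2 livers had 7612, 7782 and 7722 CPM, above the 5761 to 6853 CPM of LNP0.2 livers, a log2 change of 0.27 (SE 0.05, adjusted p = 0.00323). The mt-Co3 level was 13962, 16387 and 16264 CPM in LNP2 livers, above the 11784 to 13754 CPM of LNP0.2 livers, a change of 0.30 (SE 0.06, adjusted p = 0.00548). The LNP2 means of both mRNAs lay between those of LNP0.2 and control livers. The edgeR test added Ndufa1 as lower (-0.25).

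The 6 lower nuclear members came from all 5 complexes. Atp5a1 changed by -0.32 (adjusted p = 0.00419), with 209 to 266 CPM in LNP2 livers and 276 to 333 CPM in LNP0.2 livers. Cox5a changed by -0.29, with 372 to 460.0 CPM in LNP2 livers below the 474 to 527 CPM of LNP0.2 livers. Sdhb changed by -0.27, Uqcrfs1 by -0.25, Ndufs3 by -0.33 and Atp5c1 by -0.23. The levels of Sdhb and Atp5c1 met between the highest LNP2 and the lowest LNP0.2 liver, at 151 and 165 CPM.

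Here too single livers matter. Without LNP2 liver 3 only mt-Co3 and mt-Cytb of the members passed, without liver 36 there were 3 (mt-Cytb, Cox5a and Atp5a1), and without liver 16 there were 19. Without controls 28 and 29, which bear on this comparison through the shared spread, scaling and filter, 15 members passed. All genes called were 647 with all livers, and 230, 350, 833 and 859 in the same order. On plain CPM 7 mtDNA genes were higher and 3 nuclear members lower, with 4 of the 8 calls kept, so which members passed depends on the scaling. The medians there were 0.20 for mtDNA and -0.08 for nuclear members. A change of scaling moves all genes of a library alike, so it could hardly alter the gap between these medians.

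**Figure D4:**
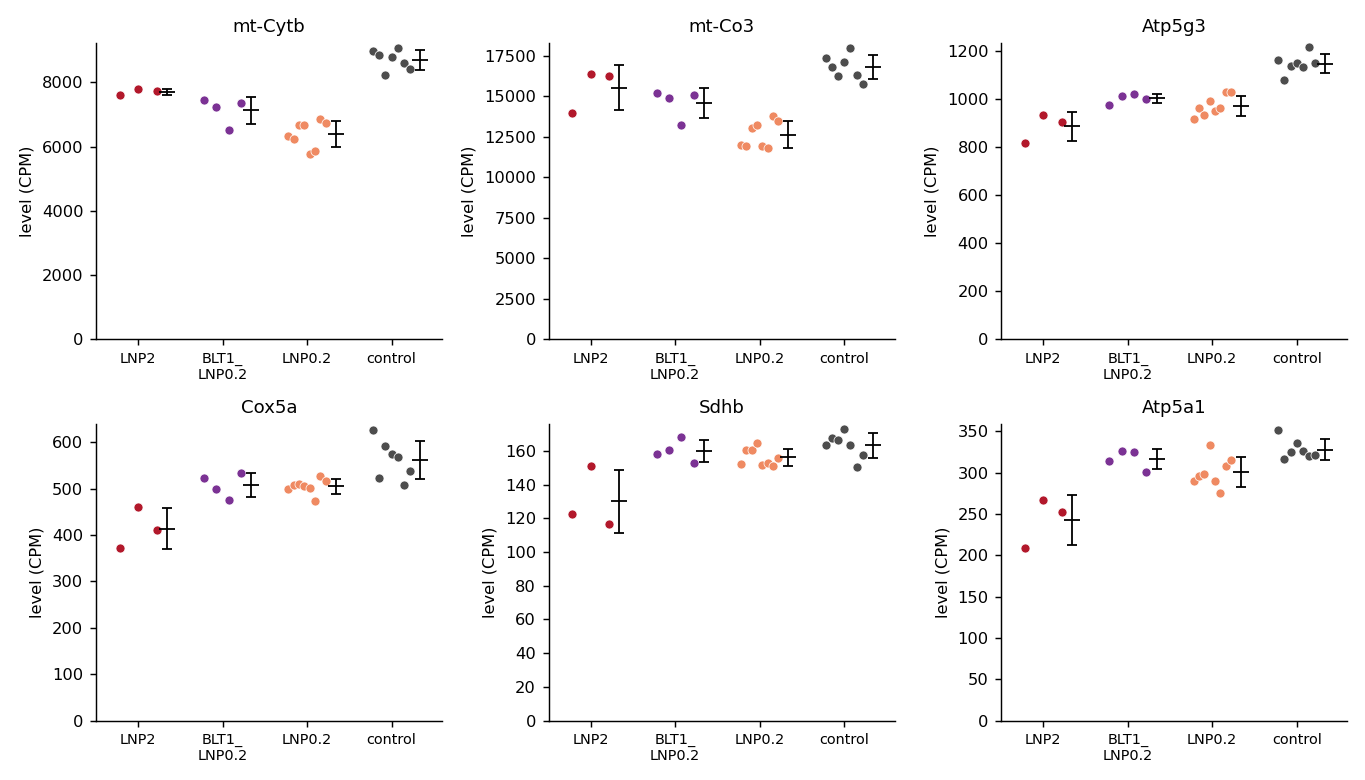
Level of 6 members in each liver, in CPM from 0, by group. Points are livers and the bar is the mean with its SD. The mtDNA genes mt-Cytb and mt-Co3 are lowest in LNP0.2 livers, and Cox5a, Sdhb and Atp5a1 are lowest in LNP2 livers.

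Prior BLT-1 was compared with particles alone at the same dose. No member passed in BLT1_LNP0.2 against LNP0.2 livers by limma or edgeR, with 11 of 102 at an unadjusted p under 0.05, and DESeq2 called mt-Nd1 and mt-Co3 as higher. Of all genes 0.0929% were called in either direction. The mtDNA members had a median of 0.15 and the nuclear members 0.01. The smallest p belonged to mt-Nd1, with 7662, 7651, 6455 and 7742 CPM in BLT1_LNP0.2 livers, against 5518, 6152 and 6772 CPM (low, median and high) in LNP0.2 livers. Only liver 19 of the BLT1_LNP0.2 group overlapped the LNP0.2 livers, and the log2 difference was 0.26 (SE 0.06, limma adjusted p = 0.0925). Next were mt-Co3 at 0.21 (adjusted p = 0.184), mt-Cytb at 0.16 (0.256), mt-Co2 at 0.15 (0.276) and the nuclear Ndufc2 at 0.16 (0.304). Without liver 19, mt-Nd1 passed.

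Against control livers, 5 members fell in BLT1_LNP0.2 livers, and 0.966% of all genes did. Above 100 CPM 4 of 71 members were lower, and the share of all genes at that level was not computed for this comparison. Whether members were lower more often than genes of like level is therefore not known. The mt-Cytb level was 7446, 7220.3, 6527 and 7349 CPM in BLT1_LNP0.2 livers, all below the 8218 to 9072 CPM of control livers, a log2 change of -0.29 (SE 0.05, adjusted p = 0.00191). The mt-Nd4l level was 1884 to 2153 CPM in BLT1_LNP0.2 livers and 2265 to 2603 CPM in control livers, a change of -0.30 (adjusted p = 0.00252). Cox4i1 changed by -0.23, Atp5g3 by -0.19 and Atp5g1 by -0.27. The edgeR test called 10 members, adding mt-Nd2, mt-Co3, Ndufb9, Ndufv1 and Atp5mpl. With the range of animal numbers as a block, 7 mtDNA and 5 nuclear members were lower, and 3 of the 5 calls remained, since Cox4i1 (adjusted p = 0.0557) and Atp5g1 (0.119) no longer passed. Without BLT1_LNP0.2 liver 6, 7 or 19 limma called 3, and without controls 28 and 29 it called 9. All genes called were 174, 166, 187 and 410 in the same order, against 305 with all livers. On plain CPM 1 member passed, mt-Cytb.

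Tissue-specific forms followed the liver pattern. Cox6a2, Cox8b and Ndufa4l2, forms known from heart, muscle or hypoxic cells, had at most 8, 11 and 6 reads in any library, and Cox6b2, known from testis, had at most 24, while Cox6a1, Cox8a and Ndufa4 had 2835 reads or more. Cox7a1, the muscle form, averaged 2.85 ± 2.54 CPM in LNP2, 5.60 ± 0.787 in BLT1_LNP0.2, 4.96 ± 1.49 in LNP0.2 and 4.74 ± 1.72 CPM in control livers, with no call. The c-ring of ATP synthase is encoded by 3 genes that give the same mature protein. Atp5g3 was lower in all 3 particle groups than in control livers. Atp5g1 was lower in BLT1_LNP0.2 and LNP0.2 but not in LNP2 livers (-0.11, adjusted p = 0.502), and Atp5g2 passed in none (0.05 in LNP2, -0.11 in BLT1_LNP0.2 and -0.11 in LNP0.2 livers). Whether these genes differ in response was not tested.

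One pseudogene carried many reads. Cox7c-ps1 averaged 1850.2 ± 75.4 CPM in LNP2, 2029 ± 103 in BLT1_LNP0.2, 2052 ± 151 in LNP0.2 and 2266 ± 161 CPM in control livers, and Cox7c averaged 352 ± 32.2, 399.7 ± 24.7, 398 ± 21.3 and 434 ± 41.8 CPM in the same groups. Their GENCODE vM21 transcripts align over 315 bases, of which 313 are identical. The open reading frame of Cox7c (chromosome 13) and the stretch of Cox7c-ps1 (chromosome 17) that faces it are shown because reads cannot easily be told apart between them. Capitals mark the 2 bases that differ.
Cox7c: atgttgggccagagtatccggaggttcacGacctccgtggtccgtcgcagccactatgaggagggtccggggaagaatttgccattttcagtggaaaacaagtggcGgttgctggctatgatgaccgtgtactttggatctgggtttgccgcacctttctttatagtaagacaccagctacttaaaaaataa
Cox7c-ps1: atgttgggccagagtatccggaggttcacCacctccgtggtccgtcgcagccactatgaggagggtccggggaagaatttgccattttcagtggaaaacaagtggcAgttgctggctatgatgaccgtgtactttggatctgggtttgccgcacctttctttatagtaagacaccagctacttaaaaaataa
Reads of Cox7c-ps1 averaged 84.0% of both in LNP2 (82.7% to 85.9%), 83.5% in BLT1_LNP0.2 (82.5% to 84.5%), 83.7% in LNP0.2 (82.8% to 84.6%) and 83.9% in control livers (82.7% to 85.7%). The ranges overlapped, and how the reads of either gene were assigned is uncertain. Of the other 13 pseudogenes 9 were tested, and none was called in the 5 comparisons by limma or edgeR.

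**Figure D5:**
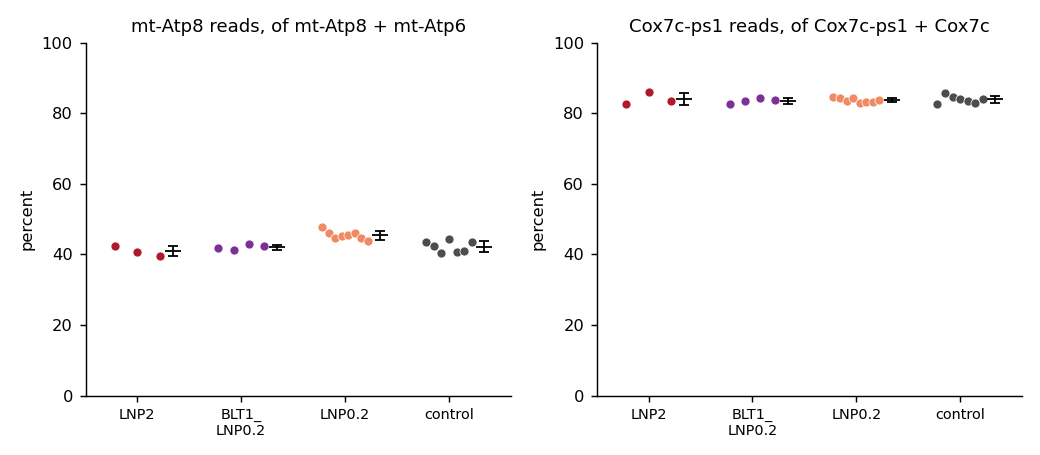
Reads of mt-Atp8 as a percent of mt-Atp8 and mt-Atp6 reads (left), and of Cox7c-ps1 as a percent of Cox7c-ps1 and Cox7c reads (right), by group. Points are livers and the bar is the mean with its SD. The mt-Atp8 share is highest in LNP0.2 livers at 45.4%, and the Cox7c-ps1 share is near 84.0% in each group.

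Other mitochondrial genes were set beside the members. The small ribosomal RNA of the mtDNA, mt-Rnr1, rose in LNP0.2 livers, where the mRNAs above fell. It averaged 4931 ± 705 CPM in LNP2, 6181 ± 692 in BLT1_LNP0.2, 8050.3 ± 761 in LNP0.2 and 5664 ± 427 CPM in control livers. In LNP0.2 livers it spanned 7135 to 9619 CPM, above the control livers at 4868 to 6070 CPM, a log2 change of 0.51 (SE 0.07, adjusted p = 0.000122). Against LNP0.2 livers it was lower in LNP2 livers (-0.71, adjusted p = 9.8e-05). The large ribosomal RNA, mt-Rnr2, averaged 12072 ± 1292 CPM in LNP0.2 and 11815 ± 1358 CPM in control livers and did not pass. A 3' end library reads RNA from a poly(A) tail, which bears on how both the ribosomal RNA and the mRNAs of the mtDNA are counted. Its part in the rise of mt-Rnr1 and in the fall of the mRNAs was not tested.

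Few assembly factors passed the test. Sco2, a copper chaperone of complex IV, was lower in LNP2 (-0.50), BLT1_LNP0.2 (-0.30) and LNP0.2 livers (-0.29), all against control livers. Uqcc2, needed for cytochrome b assembly, was higher in LNP2 than in control livers (0.47, adjusted p = 0.00179). None of 15 complex I factors passed in any of the 5 comparisons, and Cox19 and Surf1 were lower in LNP2 than in LNP0.2 livers. Of the 17 chain components outside the name rule, 3 were lower in LNP2 than in control livers. They were Etfdh, which passes electrons from fatty acid oxidation to ubiquinone (-0.48), Coq9, a factor of ubiquinone synthesis (-0.34), and Cycs, cytochrome c (-0.29).

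Of 25 tested genes of mtDNA maintenance and expression, Pnpt1, a mitochondrial RNA-degrading enzyme, was higher in LNP2 (0.51) and LNP0.2 livers (0.55) than in control livers. Tfb2m, a transcription factor of the mtDNA (-0.30), and Hsd17b10, a subunit of its RNase P (-0.29), were lower in LNP2 than in control livers. Among 9 nuclear regulators of the chain, Ppara was lower in LNP2 livers (-0.38). Citric acid cycle genes were lower in 4 of 17 cases in LNP2 livers (Suclg1, Fh1, Pdha1 and Pdhb) and in 1 case in LNP0.2 livers (Fh1, -0.32). In BLT1_LNP0.2 against LNP0.2 livers no gene of these lists passed.

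Promoter windows of 300 bases (250 before and 50 after the start, RefSeq, GRCm38.p6) matched 68 of the 82 nuclear genes, with 73 windows. They were searched on both strands for GCATGCG (NRF1), CCGGAAG (GABPA), GATGGCG (YY1) and AAGGTCA (ERRalpha), and none of these strings contains another. NRF1's string was in 15.1% of member windows and 3.58% of all 32851 windows, GABPA's in 23.3% and 8.86%, YY1's in 13.7% and 3.49%, and ERRalpha's in 8 of the 73 member windows and 4.72% of all. The median GC content was 57.7% in member windows and 52.7% in all windows. Among the 24 windows of members lower in LNP2 than in control livers, 2, 4, 1 and 2 held these strings, and among the 49 others 9, 13, 9 and 6 did. The windows of 4 members are shown, Cox5a, Sdhb and Uqcrfs1 since they were lower in LNP2 livers in both comparisons, and Atp5g3 since it was lower in every particle group. Atp5a1, Atp5c1 and Ndufs3 were also lower in LNP2 livers in both comparisons, and no windows of theirs are shown. Capitals mark a match, and in Atp5g3 it is the reverse complement of ERRalpha's string.
Cox5a, chr9:57520982-57521281, + strand: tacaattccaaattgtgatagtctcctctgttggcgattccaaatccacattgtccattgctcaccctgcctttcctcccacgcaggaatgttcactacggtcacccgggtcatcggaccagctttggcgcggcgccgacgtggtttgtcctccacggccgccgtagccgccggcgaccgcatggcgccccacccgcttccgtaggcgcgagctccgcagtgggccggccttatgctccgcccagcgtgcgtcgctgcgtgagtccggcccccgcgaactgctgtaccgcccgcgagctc
Sdhb, chr4:140961021-140961320, + strand: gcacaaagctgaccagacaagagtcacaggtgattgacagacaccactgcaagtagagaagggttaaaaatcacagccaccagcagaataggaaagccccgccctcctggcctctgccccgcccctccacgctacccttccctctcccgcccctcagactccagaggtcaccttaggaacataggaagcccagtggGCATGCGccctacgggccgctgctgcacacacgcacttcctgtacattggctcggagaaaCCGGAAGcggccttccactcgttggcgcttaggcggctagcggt
Uqcrfs1, chr13:30545267-30545566, - strand: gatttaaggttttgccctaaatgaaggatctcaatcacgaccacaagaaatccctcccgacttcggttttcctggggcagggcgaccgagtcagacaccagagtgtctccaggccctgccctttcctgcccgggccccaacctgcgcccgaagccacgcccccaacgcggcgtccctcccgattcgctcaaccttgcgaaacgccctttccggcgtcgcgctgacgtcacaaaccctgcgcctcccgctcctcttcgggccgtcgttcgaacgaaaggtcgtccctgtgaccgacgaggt
Atp5g3, chr2:73911277-73911576, - strand: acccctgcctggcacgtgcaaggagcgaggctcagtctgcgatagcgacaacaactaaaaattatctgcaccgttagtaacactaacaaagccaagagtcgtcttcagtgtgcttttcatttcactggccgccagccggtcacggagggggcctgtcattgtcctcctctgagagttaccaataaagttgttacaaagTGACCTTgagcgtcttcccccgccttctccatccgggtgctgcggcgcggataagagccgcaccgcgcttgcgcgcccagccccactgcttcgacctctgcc
The windows of Cox5a and Uqcrfs1 held none of the 4 strings.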

How the data were processed

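RNA was extracted with an RNeasy kit, and 3' end libraries with ERCC spike-ins were sequenced on a NextSeq, per the labels' protocols. Per the submitters' processing notes, the tools were bcl2fastq, Trim Galore 0.6.7, STAR 2.7.9a, Salmon 1.5.2 and DESeq2 1.32.0 in R 4.1.1, with build GRCm39. The authors deposited signal, gene reads divided by 1 size factor a library that follows the spike-ins. All values came out as whole reads (tolerance 0.001), from which TMM-scaled CPM was computed. The edgeR test on these reads called 541 genes in LNP0.2 against control, 764 in LNP2 against control and 593 in LNP2 against LNP0.2 livers. Spike-ins took no part in the gene library sizes.

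The main test was limma 3.58.1 with a trend on log2(CPM + 1) over all 22 libraries, for genes at 1 CPM or more in at least 3, with Benjamini-Hochberg adjustment over 10763 genes and a threshold of 0.05. Fold changes on this scale understate the change of low genes. All adjusted p-values are limma's unless edgeR 4.0.16 or DESeq2 1.42.0 is named. The fits were also run on simulated data, with planted changes larger than any called here among the members. That run therefore does not bear on calls of this size. Named are the mtDNA members, members called by limma or edgeR, the 5 smallest p where fewer than 5 were called, the 2 highest of each complex, isoform groups, and up to 3 called genes of other lists. The values of 1 member are not reported here. Genes listed for completeness beyond this were chosen after their values were seen. Members and lists were chosen with earlier results of these data known. Each library was taken as 1 animal by its number, which the labels do not state. The LNP2 libraries held both Xist and Ddx3y, and whether each came from 1 animal is not known. P-values measure the spread between these libraries. Reads carry no molecular identifiers.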

Additional observations from a re-analysis of the deposited data

Results flagged for a closer look

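Of 159 groups of 4 to 8 livers checked for a liver far from the others, 13 had one (8.18%), and chance gives about 5%. BLT1_LNP0.2 liver 19 was the lowest of its 4 for mt-Nd1 at 6455 CPM (nearest 7651), mt-Nd2 at 6864, mt-Co3 at 13232, mt-Atp6 at 19215 and Atp5c1 at 171 CPM, and for the mtDNA sum at 113990 CPM. These mtDNA values come from 1 library and are not independent of each other. In the same group, liver 6 was the highest for Ndufb5 at 129 CPM, and liver 20 for Atp5g1 at 12.6 CPM. LNP0.2 liver 30 was the highest of 8 for Cox4i1 at 684 CPM. Control liver 15 was the highest of 7 for mt-Co1 at 686 and Ndufc2 at 202 CPM, and control liver 1 for Cox7c at 522 and Atp5mpl at 1595 CPM.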

How the results depend on the processing

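No paired analysis was possible because no animal number is shared between groups. A fit with the range of animal numbers as a block, which does not pair animals, called 25 members in LNP0.2 against control, 43 in LNP2 against control, 15 in LNP2 against LNP0.2, 0 in BLT1_LNP0.2 against LNP0.2 and 12 in BLT1_LNP0.2 against control livers, with 19, 34, 7, 0 and 3 of the calls without it kept. All genes called with the block were 565, 929, 766, 7 and 301 in the same order, against 608, 856, 647, 10 and 305 without it. DESeq2 called 696, 890, 721, 98 and 472 genes, and fits of the 2 groups alone 503, 317, 570, 12 and 180. Members called in LNP0.2 against control livers were 20, and 0 on the spike-in scale (limma, 6 at an unadjusted p under 0.05), 10 on plain CPM and 37 by DESeq2. In LNP2 against control livers they were 35, and 0 on the spike-in scale (5 so), 5 on plain CPM and 7 in a fit of these groups alone. In LNP2 against LNP0.2 livers they were 8, and 0 on the spike-in scale (1 so), 5 in a fit of these groups alone, 13 by edgeR without controls 28 and 29, and 15 with the number range as a block, without those controls by limma, or by DESeq2. In BLT1_LNP0.2 against LNP0.2 livers DESeq2 called 2. In BLT1_LNP0.2 against control livers they were 5, and 0 on the spike-in scale (0 so), 1 on plain CPM, 3 in a fit of these groups alone, 8 with RLE factors, 10 by edgeR, 12 with the block, 9 without controls 28 and 29, 13 by edgeR without them, and 20 by DESeq2.

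Leaving out 1 liver gave 15 to 23 members in LNP0.2 against control, 8 to 48 in LNP2 against control, 2 to 19 in LNP2 against LNP0.2, 0 to 1 in BLT1_LNP0.2 against LNP0.2 and 3 to 6 in BLT1_LNP0.2 against control livers. All genes called ranged from 464 to 627, 378 to 1068, 230 to 833, 2 to 23 and 166 to 303 in the same order. The log2 ratio difference then ranged from -0.222 to -0.187, 0.0218 to 0.0865, 0.227 to 0.292, 0.117 to 0.183 and -0.0881 to -0.0223 in the same order. Within number ranges, in rising order, the ratio difference was -0.222, -0.114 and -0.316 for LNP0.2 minus control. It was 0.0565 and 0.0264 for LNP2 minus control and 0.278, 0.140 and 0.242 for LNP2 minus LNP0.2, with 1 LNP2 liver in each range. For BLT1_LNP0.2 it was 0.177 and 0.0492 minus LNP0.2, and -0.0443 and -0.0648 minus control. Of all genes called, 357 were higher and 251 lower in LNP0.2 against control livers (24 and 0 on the spike-in scale, 975 and 65 on plain CPM), and 447 and 409 in LNP2 against control livers (32 and 21 on the spike-in scale, 971 and 169 on plain CPM). In LNP2 against LNP0.2 livers they were 324 and 323 (20 and 12 on the spike-in scale), and in BLT1_LNP0.2 against control livers 65.9% were higher (100% of 1 on the spike-in scale and 83.9% on plain CPM). Of 79 gene results named, 24 stayed past the threshold in every fit that left out 1 liver. None of these 79 reversed its sign under any setting, where changes on the spike-in and plain CPM scales were taken relative to the median of all genes. The 79 were chosen as called by limma or edgeR on these same livers, which made a reversal unlikely. Taking out the median also removes a shift common to all genes. The spike-in and plain CPM scales could therefore hardly reverse a sign. The plain CPM, edgeR without controls 28 and 29 and within-range settings were chosen after seeing the data. The cause of these changes was not tested. The LNP2 comparisons rest on 3 livers, and mt-Nd6 on 43 to 144 reads a library.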
